A study of Caenorhabditis elegans with 12 samples.

Results

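The genes described here are 10 regulators of early *C. elegans* development, namely *elt-1*, *lin-26*, *elt-3*, *nhr-25*, *ceh-16*, *dsl-2*, *tbx-37*, *tbx-38*, *pes-10* and *end-3*, out of 46904 genes measured by RNA-seq. They were picked by gene name, with the levels of the N2 *rpia-1* (RNAi) Day 0 group in view, because the library of its replicate 1 stood apart for several of them. Their levels in the 6 N2 libraries are therefore given as a description with no test. Tests of these genes were made in the TU3401 comparison and between the control groups. The test between control groups uses the N2 EV libraries, which are among those that replicate 1 stood apart from. It may therefore not be independent of how the genes were picked. Their differences in the N2 libraries without that replicate are also given as a description.

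RNA of whole worms was sequenced in 4 groups of 3 libraries, each from at least 500 pooled worms, to compare knockdown of *rpia-1*, which encodes ribose-5-phosphate isomerase A of the pentose phosphate pathway, with empty vector (EV) controls. N2, the wild type (WT), was fed bacteria making *rpia-1* dsRNA from day 0 of adulthood (N2 *rpia-1* (RNAi) Day 0) or EV bacteria (N2 EV), and is labelled Day 5. TU3401, which carries the transgene uIs69, made of pCFJ90 (myo-2p::mCherry), a pharyngeal marker, and unc-119p::sid-1, the dsRNA channel SID-1 under a neuronal promoter, was fed *rpia-1* dsRNA bacteria from the embryo on for the whole life (TU3401 *rpia-1* (RNAi) WL) or EV bacteria (TU3401 EV), and is labelled Day 0, while its sample names carry L4, the last larval stage. The study's methods give a harvest at day 5 of adulthood for all samples, so strain, onset of RNAi and age by label differ together between N2 and TU3401 and cannot be told apart.

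Early *C. elegans* embryos run on RNA that the mother put into the egg, and transcription from the embryo's own genome starts within a few cell divisions. The first zygotic regulators then set lineage fates, with GATA factors specifying epidermis and gut, T-box factors specifying anterior mesoderm, and Notch signals between cells separating their fates. In the epidermis, the GATA factor ELT-1 sets the fate and acts upstream of other factors that maintain it, and the embryonic epidermis later secretes the sheath and the first cuticle.

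The values are TPM, transcript abundances scaled by the length of each gene and the total of each library. N2 *rpia-1* (RNAi) Day 0 replicate 1 had 22388 genes with a TPM above 0, against 17777 to 19135 in the other 5 N2 libraries. Across genes, on a log2 scale, this library correlated with the other N2 libraries at a Pearson's r of 0.985 to 0.992, and the others with each other at 0.995 to 0.997. The N2 libraries also held less RNA of muscle and intestine markers and more maternal RNA than those of TU3401. The values are given beside the EV comparison, and their part in the N2 levels of the 10 genes was not tested. The depth in reads is unknown, and a relative depth read from low values ran between 0.786 and 1.20 of the median library. The targeted gene *rpia-1* had 27.5, 32.8 and 30.2 TPM in N2 *rpia-1* (RNAi) Day 0 and 128, 115.4 and 120 TPM in N2 EV, a difference of −1.97 in log2(TPM + 1) (SE 0.08, limma adjusted p = 0.00053). In TU3401, whose transgene targets neurons, it had 82.0, 88.5 and 106 TPM in *rpia-1* (RNAi) WL and 107, 107 and 115.3 TPM in EV, a difference of −0.26 (SE 0.12) that did not pass the limma threshold.

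*elt-1* (WBGene00001249, chromosome IV, 9614995 to 9620280, plus strand, WBcel235) encodes the GATA factor that specifies epidermal fate. It had 43.9, 17.3 and 16.99 TPM in N2 *rpia-1* (RNAi) Day 0 and 16.8, 17.3 and 24.9 TPM in N2 EV. Knockdown replicate 1 was the highest N2 library and EV replicate 3 the next, and the other 4 lay within 1 TPM of each other. In TU3401 it had 5.01, 5.50 and 5.29 TPM in *rpia-1* (RNAi) WL and 6.19, 4.15 and 5.09 TPM in EV, and these groups overlapped.

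*lin-26* (WBGene00003012, chromosome II, 7682198 to 7684764, plus strand) encodes a zinc finger protein that maintains epidermal and glial fates, and was the most abundant of the 10 genes. It had 144, 147 and 153 TPM in N2 *rpia-1* (RNAi) Day 0 and 151, 141 and 161 TPM in N2 EV. Here knockdown replicate 1 did not stand apart and the groups overlapped. In TU3401 it had 66.4, 80.6 and 74.6 TPM in *rpia-1* (RNAi) WL and 71.3, 82.0 and 61.8 TPM in EV. Of its exon bases, 156 (7.33%) are shared on the same strand with *lir-1*, which reached 166 TPM, so a part of its reads may be split with that gene.

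*elt-3* (WBGene00001251, chromosome X, 13934874 to 13941216, plus strand), a GATA factor of differentiated epidermis that acts downstream of ELT-1, was the only one of the 10 with higher levels in TU3401. In N2 it had 5.34, 1.85 and 2.51 TPM in *rpia-1* (RNAi) Day 0 and 2.70, 1.88 and 3.72 TPM in EV, again with knockdown replicate 1 highest and EV replicate 3 next. It had 12.2, 8.14 and 20.0 TPM in TU3401 *rpia-1* (RNAi) WL and 13, 12.2 and 13.4 TPM in TU3401 EV, so the knockdown libraries lay on both sides of the controls.

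*nhr-25* (WBGene00003623, chromosome X, 13008493 to 13013964, plus strand) encodes a nuclear receptor of the NR5A family that acts in epidermal development and molting. It had 12.9, 2.01 and 1.99 TPM in N2 *rpia-1* (RNAi) Day 0 and 2.07, 3.03 and 5.47 TPM in N2 EV. Knockdown replicate 1 was more than 2-fold above every other N2 library, and the other knockdown replicates lay below all 3 EV libraries. TU3401 levels were 0.871, 0.905 and 0.958 TPM in *rpia-1* (RNAi) WL and 0.855, 0.832 and 0.871 TPM in EV, a narrow range.

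*ceh-16* (WBGene00000439, chromosome III, 8622735 to 8626314, plus strand), the engrailed homologue that acts in the lateral epidermal seam cells, had 27.7, 4.07 and 4.11 TPM in N2 *rpia-1* (RNAi) Day 0 and 2.46, 4.72 and 10.2 TPM in N2 EV. Apart from replicate 1, the knockdown libraries fell inside the EV range. TU3401 held little of it, at 0.472, 0.240 and 0.326 TPM in *rpia-1* (RNAi) WL and 0.233, 0.0997 and 0.0927 TPM in EV, with the lowest knockdown library just above the highest EV library. It shares 57 exon bases (6.18%) with *polk-1* on the opposite strand, which reached 137 TPM. The library kit is stranded but the strand setting of the counting is not given in the sources used here, so reads of the pair may not be fully separated.

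The Notch ligand gene *dsl-2* (WBGene00001104, chromosome IV, 1202651 to 1204970, minus strand) had 33.7, 6.67 and 8.80 TPM in N2 *rpia-1* (RNAi) Day 0 and 6.87, 6.70 and 11.4 TPM in N2 EV. It was thus close to the pattern of *ceh-16*, with 1 high knockdown library and EV replicate 3 above the other EV libraries. In TU3401 it had 0.323, 1.23 and 0.550 TPM in *rpia-1* (RNAi) WL and 0.386, 0.404 and 0.165 TPM in EV.

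The T-box genes *tbx-37* (WBGene00006556, chromosome III, 11224808 to 11227125, minus strand) and *tbx-38* (WBGene00006557, chromosome III, 11784082 to 11786061, minus strand) are close paralogs that act together to specify anterior mesoderm, and reads of 1 may be assigned to the other. *tbx-37* had 4.01, 0.673 and 1.032 TPM in N2 *rpia-1* (RNAi) Day 0 and 0.949, 0.760 and 1.30 TPM in N2 EV. *tbx-38* had 5.78, 1.10 and 2.13 TPM in N2 *rpia-1* (RNAi) Day 0 and 0.962, 2.02 and 2.12 TPM in N2 EV. Both were highest in knockdown replicate 1 and within the EV range, or just outside it, in the other knockdown replicates. In TU3401 *tbx-38* was listed at 0 in all 6 libraries, and *tbx-37* had 0.0584, 0.176 and 0 TPM in *rpia-1* (RNAi) WL and 0, 0.0771 and 0.122 TPM in EV.

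*pes-10* (WBGene00003983, chromosome II, 12846191 to 12847836, minus strand) is among the earliest genes that the embryo transcribes. It had 3.32, 0.896 and 1.24 TPM in N2 *rpia-1* (RNAi) Day 0 and 1.77, 0.639 and 1.24 TPM in N2 EV, and was listed at 0 in all 6 TU3401 libraries. *end-3* (WBGene00001311, chromosome V, 14014695 to 14015980, plus strand), a GATA factor that specifies endoderm, went the other way from most of the 10 genes in N2. It had 0.802, 1.58 and 1.05 TPM in N2 *rpia-1* (RNAi) Day 0 and 1.62, 1.78 and 1.20 TPM in N2 EV, and knockdown replicate 1 was the lowest of the 6. In TU3401 it had 0.536, 0.771 and 0.530 TPM in *rpia-1* (RNAi) WL and 0.0764, 0.538 and 0.446 TPM in EV.

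**Figure D1:**
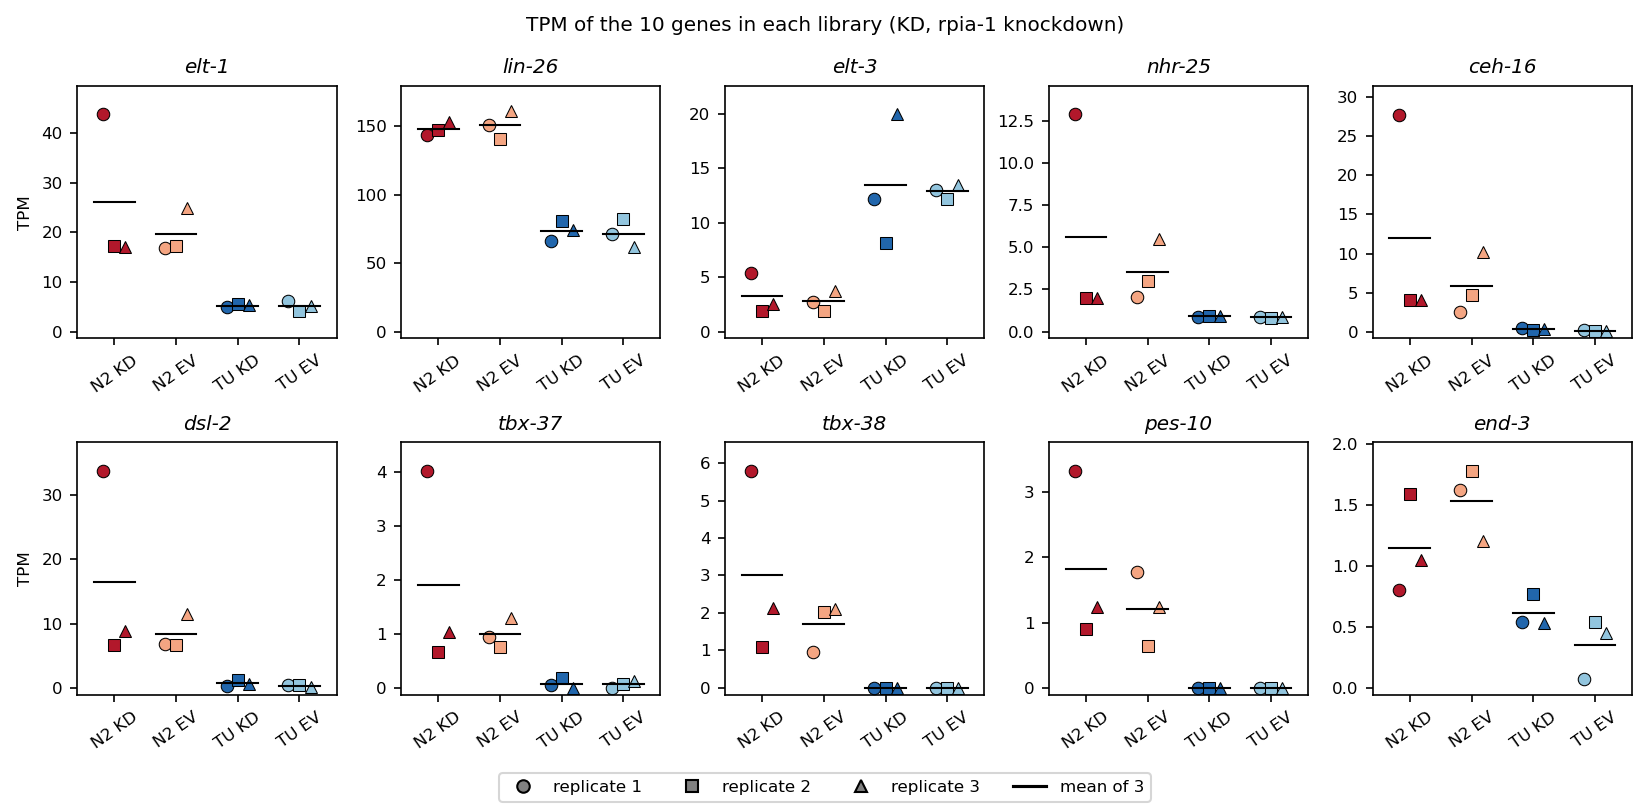
TPM of each of the 10 genes (y axis, linear, its own scale per panel) in N2 rpia-1 (RNAi) Day 0 (N2 KD), N2 EV, TU3401 rpia-1 (RNAi) WL (TU KD) and TU3401 EV, with 1 symbol per library by replicate number and a bar at the mean of 3. In 8 panels N2 KD replicate 1 is the highest N2 point, lin-26 and end-3 are the exceptions, and only elt-3 is higher in TU3401.

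Set against the median of the other 5 N2 libraries, N2 *rpia-1* (RNAi) Day 0 replicate 1 was at least 2-fold higher for 8 of the 10 genes, where 16.2% of the 10626 genes averaging at least 1 TPM in N2 were. It was the highest N2 library for the same 8 genes, which held for 39% of all genes. Since this library was in view when the genes were picked, nothing is read from these shares. The minimum of 1 TPM also counts this library. Without it 10293 genes met the minimum, and *tbx-37* did not. The ratio was 6.74 for *ceh-16*, 6.21 for *nhr-25*, 4.90 for *dsl-2*, 4.22 for *tbx-37*, 2.86 for *tbx-38*, 2.68 for *pes-10*, 2.54 for *elt-1* and 2.13 for *elt-3*. It was 0.955 for *lin-26* and 0.507 for *end-3*, so the most abundant gene and the endoderm gene lay outside the pattern. The limits used here and for EV replicate 3, 2-fold and 1.5-fold, were set after the values had been seen.

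A control library leaned the same way. N2 EV replicate 3 was at least 1.5-fold above the median of the remaining 4 N2 libraries for 5 of the 10 genes, *nhr-25* at 2.68, *ceh-16* at 2.49, *elt-3* at 1.69, *dsl-2* at 1.68 and *tbx-37* at 1.52, and for 9.21% of all genes. Just below that limit was *elt-1* at 1.45, and *end-3* was at 0.749. In both libraries *nhr-25* and *ceh-16* had the 2 highest ratios of the 10 genes and *end-3* the lowest. The ratios of the 8 genes that were high in the knockdown library were smaller in the control library, and the cause of either was not tested.

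**Figure D2:**
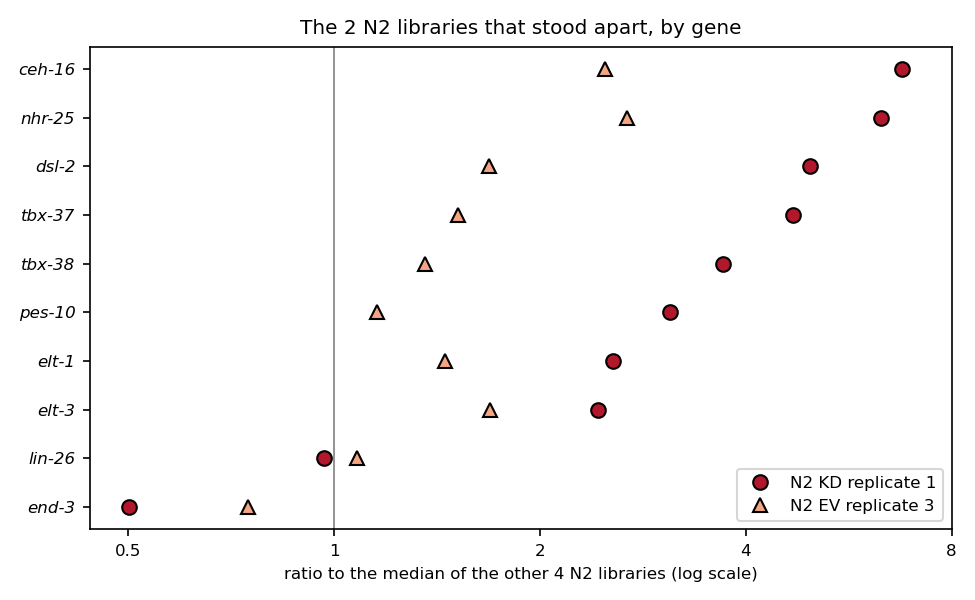
Ratio of TPM in N2 KD replicate 1 (circles) and in N2 EV replicate 3 (triangles) to the median of the other 4 N2 libraries (x axis, log scale), 1 row per gene, with a line at 1. For 8 genes the circle lies to the right of the triangle and both lie above 1, and for end-3 both lie below 1.

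Over the 3 libraries of each group, the difference between N2 *rpia-1* (RNAi) Day 0 and N2 EV in mean log2(TPM + 1), given as a description, was between 0.11 for *elt-3* and 0.60 for *dsl-2* for the 8 genes with a high replicate 1, −0.02 for *lin-26* and −0.25 for *end-3*. Of all 10626 genes tested with limma in this comparison, 1 passed at an adjusted p under 0.05 (0.00941%), *rpia-1* itself. Without knockdown replicate 1, 9 of the 10 genes met the minimum mean of 1 TPM, all but *tbx-37*. All 9 then had a difference below 0, where the median over all genes tested was −0.0069. It ran from −0.52 for *nhr-25* (SE 0.30) and −0.25 for *ceh-16* (SE 0.43) to −0.0045 for *lin-26* (SE 0.06). Knockdown replicate 1 was left out with its values in view, and EV replicate 3, which leaned the same way, stayed in. These differences are therefore a description too, with no test. Of all genes in this fit, 33 of 10293 passed (0.321%), all 33 lower in the knockdown, and 705 had an unadjusted p under 0.05. A positive difference of these genes between knockdown and control in N2 thus rested on 1 library.

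The other gene lists of the same programmes showed how far the pattern reached in that library. Their genes were drawn up by function with earlier results of these data known, and those named in this paragraph and the 2 that follow were chosen after their values had been seen. Low genes of these lists can meet the minimum of 1 TPM through knockdown replicate 1 itself, so the counts are a description. Of 10 genes of the embryonic sheath and early cuticle averaging at least 1 TPM in N2, all 10 were at least 2-fold higher in N2 *rpia-1* (RNAi) Day 0 replicate 1, with a median ratio of 6.99, where the median over all genes was 1.02. All 10 were also at least 1.5-fold higher in N2 EV replicate 3, with a median of 3.08. Over all genes these 2 shares were 16.2% and 9.21%. *sqt-3*, a collagen gene, had 136, 13.99 and 16.2 TPM in N2 *rpia-1* (RNAi) Day 0 and 13.4, 19.9 and 47.7 TPM in N2 EV. *noah-1*, which encodes a protein of the embryonic sheath, had 53.8, 6.88 and 7.86 TPM in N2 *rpia-1* (RNAi) Day 0 and 7.97, 8.59 and 22.8 TPM in N2 EV. Both thus had the order of libraries seen for *nhr-25* and *ceh-16*, with knockdown replicate 1 first and EV replicate 3 second.

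Over all genes, 16.2% were at least 2-fold higher in knockdown replicate 1. Of 18 early zygotic genes of the vet and sdz classes 14 were, with a median ratio of 3.18. Among 7 other T-box genes it was 4, *tbx-2*, *tbx-8*, *tbx-11* and *tbx-43*, while *tbx-9* had a ratio of 0.873 and *tbx-36* of 0.833. Of 7 genes of the Notch pathway it was the ligand genes *dsl-1*, at a ratio of 5.49, and *dsl-3*, at 6.73, while the receptor genes *glp-1* and *lin-12* were at 0.823 and 1.05. A further ligand gene, *apx-1*, was at 0.816, so the ligand genes of the list were not all high in this library. Of 7 further epidermal regulators 1 gene, *bro-1*, was over 2-fold, near the share over all genes, with a list median of 1.72. *bro-1* had 3.19 TPM in knockdown replicate 1 and 0.443 to 1.72 TPM in the other N2 libraries. It thus met the minimum of 1 TPM only through the library that was scored. Of 11 genes of epidermal junctions and fusion 4 did, *dlg-1* at 3.22 and *ajm-1* at 2.85 among them. None of 4 endoderm regulators did, with a median of 0.982, and *end-1*, the paralog of *end-3*, was at 0.427 TPM or less in every N2 library.

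Markers of other cells moved unequally in the same library. Of 9 neuron markers averaging at least 1 TPM in N2, 4 were at least 2-fold higher in knockdown replicate 1, against 16.2% of all genes. The summed TPM of all 10 neuron markers was 432 to 512 in N2 *rpia-1* (RNAi) Day 0 and 411 to 442 in N2 EV. None of 5 body wall muscle markers and none of 9 intestine markers was 2-fold higher. All 19 maternal RNAs of egg and early embryo were below the 2-fold limit, with a median ratio of 0.854, and their summed TPM was 13002 to 15032 in N2 *rpia-1* (RNAi) Day 0 and 14120 to 15345 in N2 EV, lowest in knockdown replicate 1. Of these maternal RNAs *pos-1*, which encodes an RNA-binding protein of the early embryo, had 1597, 1872 and 1847 TPM in N2 *rpia-1* (RNAi) Day 0 and 1887, 1936 and 1706 TPM in N2 EV. The part of these cells and RNAs in the levels of the 10 genes was not tested. In RNA of whole worms fewer cells of a type and less RNA per cell cannot be told apart.

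**Figure D3:**
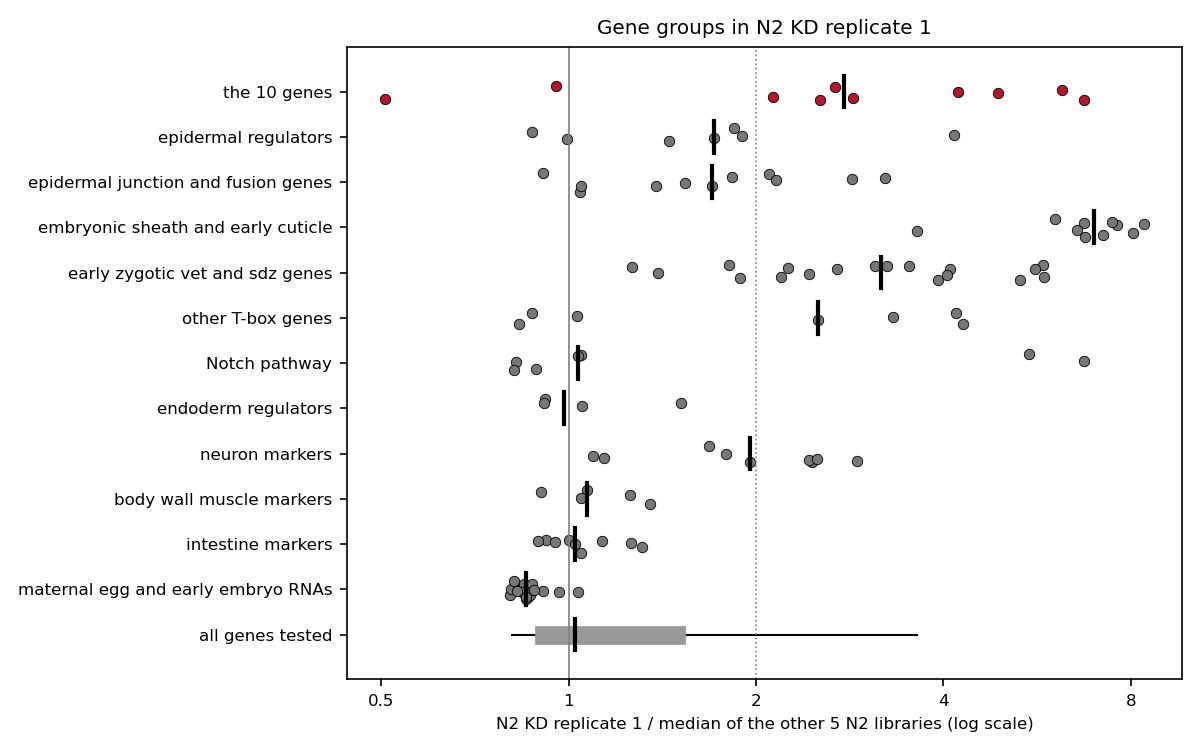
Ratio of TPM in N2 KD replicate 1 to the median of the other 5 N2 libraries (x axis, log scale) for each gene averaging at least 1 TPM in N2, by gene list, with thick bars at list medians and a dotted line at 2-fold; the bottom row gives the median, quartiles and 5th to 95th percentile of all genes. The sheath and early cuticle genes lie furthest to the right, the maternal RNAs lie near or below 1, and the 10 genes (red) spread from 0.507 to 6.74. Low genes can meet the minimum of 1 TPM through N2 KD replicate 1 itself.

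The control groups of the strains differed for every one of the 10 genes. N2 EV had higher levels than TU3401 EV for 9 of the 10 genes and lower levels for *elt-3*, with no overlap between the 3 libraries of each group for any of them. Among all genes above 0 in these libraries, 23.1% were higher and 30.9% lower in N2 EV without overlap. An exact permutation test of 3 against 3 libraries gave p = 0.1 for each of the 10, the smallest it allows. Of the 10 genes, 6 averaged at least 1 TPM over these 6 libraries and entered the limma fit, but *dsl-2*, *ceh-16* and *nhr-25* reached this minimum only through N2 EV, where they were high, so that their calls in this fit are not independent of the filter. The other 3 averaged over 1 TPM in both groups and passed, *elt-1* and *lin-26* higher and *elt-3* lower, where 43.4% of the 13348 genes tested were higher and 45.4% lower. With no filter on low values all 10 genes entered the fit and passed, 9 higher and 1 lower, where 21.2% of 28778 genes were higher and 27.2% lower. Differences of this kind were thus common across the genome. The p-values of the 10 genes here may also not be independent of how they were picked, with N2 levels in view.

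Of the higher genes, *elt-1* had 19.7 ± 4.50 TPM in N2 EV and 5.14 ± 1.02 TPM in TU3401 EV (SD, n = 3 each), a difference of 1.74 in log2(TPM + 1) (SE 0.18, limma adjusted p = 1.17e-05). *lin-26* differed by 1.07 (SE 0.11, limma adjusted p = 8.21e-06). *dsl-2* averaged 8.32 ± 2.67 TPM in N2 EV, against 0.319 ± 0.133 TPM in TU3401 EV (SD, n = 3 each), and in the fit with no filter it differed by 2.79 (limma adjusted p = 0.000456). In that fit the difference was 2.41 for *ceh-16* (limma adjusted p = 0.0095) and 1.22 for *nhr-25* (limma adjusted p = 0.0226). Without N2 EV replicate 3 the differences were 1.57 for *elt-1*, 1.02 for *lin-26*, 2.57 for *dsl-2*, 1.96 for *ceh-16* and 0.93 for *nhr-25*, and *elt-1* and *lin-26* still passed.

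*elt-3* had 2.77 ± 0.920 TPM in N2 EV and 12.9 ± 0.642 TPM in TU3401 EV (SD, n = 3 each), a difference of −1.91 (SE 0.18, limma adjusted p = 6.30e-06). It thus ran opposite to *elt-1*, the GATA factor that acts upstream of it in the embryo. *tbx-38* and *pes-10*, listed at 0 in TU3401, had at most 2.12 and 1.77 TPM in N2 EV, and the highest TU3401 EV library of *tbx-37*, at 0.122 TPM, lay below the lowest N2 EV library, at 0.760 TPM.

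The related lists split in the same comparison, in the fit of genes averaging at least 1 TPM. Low genes can enter this fit through the group where they are high. Over all genes tested in it, 43.4% passed higher and 45.4% lower, and the counts that follow are also of genes that passed. All 6 tested genes of the Notch pathway passed and were higher in N2 EV, with a median difference of 1.17 against −0.06 over all genes tested; *glp-1*, a Notch receptor gene of the germline, differed by 1.20 (SE 0.10, limma adjusted p = 2.31e-06). Of 8 other T-box genes 6 were higher, *tbx-11* by 2.65 among them, and 2 were lower, *tbx-34* by −3.18 and *tbx-2* by −1.56. Of 12 vet and sdz genes 8 were higher, such as *vet-1* with a difference of 3.83, and 2 lower, of which *sdz-24* had −5.36. Of 5 epidermal regulators 3 were higher and 2 lower. The GATA gene *egl-18*, which acts in seam cells, was 85.5 ± 6.73 TPM in N2 EV and 18.6 ± 2.54 TPM in TU3401 EV (SD, n = 3 each) and its neighbour *elt-6* differed by 1.90, whereas *blmp-1* differed by −1.20. Of 12 tested genes of sheath and early cuticle 5 were higher, *dpy-17* by 2.78, and 4 lower, *sqt-3* by −1.87, and of 4 endoderm regulators the gut differentiation genes *elt-2* and *elt-7* were lower, by −2.67 and −1.68, and *pop-1* and *skn-1* higher. Of 12 genes of epidermal junctions and fusion 4 were higher and 6 lower, of 4 mesoderm and muscle regulators 2 and 2, and of 3 pharynx regulators 1 and 2, and *ref-1*, a target of Notch signalling in the embryo, was higher by 2.32.

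The make-up of the 2 kinds of worm sample differed in the same comparison. All 19 maternal RNAs passed and were higher in N2 EV, with a median difference of 1.40, and their summed TPM was 14120 to 15345 in N2 EV and 5947 to 6982 in TU3401 EV. All 6 body wall muscle markers were lower in N2 EV, with sums of 58.5 to 68.2 TPM in N2 EV and 2827 to 3370 TPM in TU3401 EV. For instance *unc-54*, the major body wall myosin, had 6.41 to 8.23 TPM in N2 EV and 644 to 710 TPM in TU3401 EV. The 9 intestine markers summed to 707 to 846 TPM in N2 EV and 6414 to 6758 TPM in TU3401 EV. All 9 were lower in N2 EV and 8 of them passed. In addition, 33 of 33 tested major sperm protein genes were lower and passed. Their sums were 0.638 to 13.5 TPM in N2 EV and 6790 to 9594 TPM in TU3401 EV. The 6 adult cuticle and L4 collagen genes were all lower too. Of 10 neuron markers 9 were lower, while *snb-1* averaged 392 TPM in N2 EV and 211 TPM in TU3401 EV. The summed TPM of the neuron markers thus went the other way, at 411 to 442 in N2 EV and 307 to 324 in TU3401 EV. The N2 libraries, labelled whole worm, thus held muscle, intestine and sperm RNA at much lower levels than TU3401, and maternal RNAs at higher levels. What share of the N2 samples was worm tissue and what share eggs or embryos was not tested, nor was its part in the levels of the 10 genes.

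**Figure D4:**
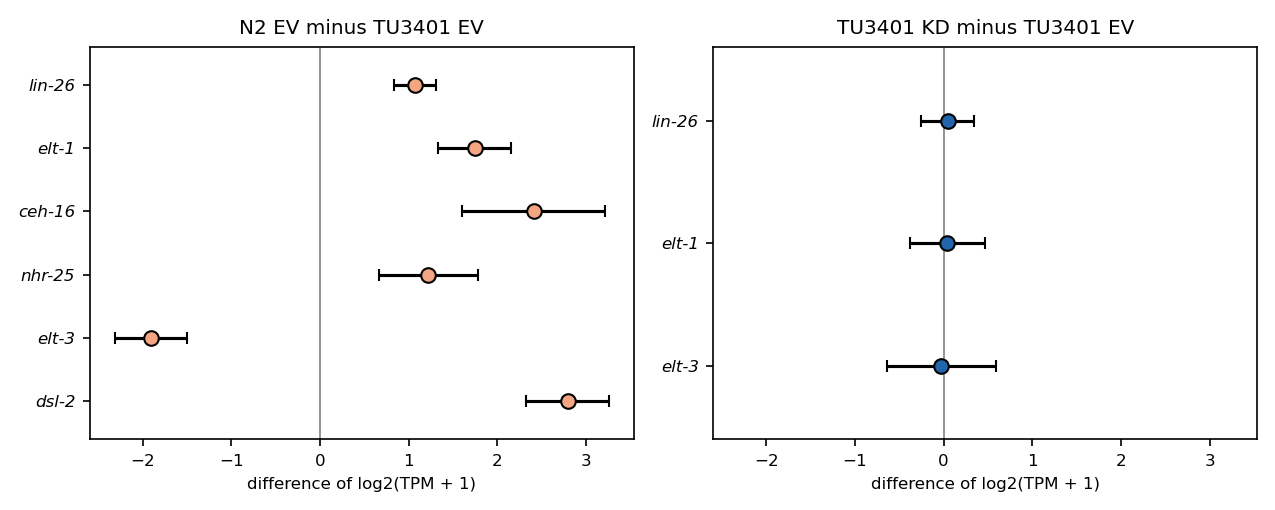
Difference in mean log2(TPM + 1) with its 95% interval (limma, 3 against 3 libraries) for N2 EV minus TU3401 EV (left, 6 genes) and for TU3401 rpia-1 (RNAi) WL minus TU3401 EV (right, 3 genes), for the genes averaging at least 1 TPM in the comparison. On the left 5 intervals lie above 0 and that of elt-3 lies below it, and on the right all 3 include 0. On the left dsl-2, ceh-16 and nhr-25 reached the minimum only through N2 EV, so their intervals are not independent of the filter.

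In TU3401, knockdown of *rpia-1* for the whole life gave no difference that passed in the 3 of these genes that could be fitted. The targeted gene *rpia-1* itself, with a difference of −0.26, did not pass in this fit either. Of the 3 averaging at least 1 TPM, *elt-1* differed by 0.04 in log2(TPM + 1) between *rpia-1* (RNAi) WL and EV (95% interval −0.38 to 0.46), *lin-26* by 0.05 (−0.25 to 0.35) and *elt-3* by −0.03 (−0.64 to 0.59), each with a limma adjusted p of 1.00. Of all 13921 genes tested with limma, 0 passed (0%), and 164 had an unadjusted p under 0.05. The other 7 genes lay below this minimum.

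Of the 8 genes above 0 in any TU3401 library, 1 had groups that did not overlap, *ceh-16*, higher in the knockdown, where 1.44% of all genes above 0 were higher without overlap. Its levels averaged 0.346 ± 0.117 TPM in TU3401 *rpia-1* (RNAi) WL and 0.142 ± 0.0793 TPM in TU3401 EV (SD, n = 3 each). The exact permutation test gave p = 0.1, the smallest that 3 against 3 libraries allow, and p = 0.2 for *nhr-25*, 0.3 for *dsl-2*, 0.3 for *end-3* and 1 for *tbx-37*, all two-sided and not adjusted. None of the related lists had a gene that passed in this comparison.

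Across the 12 libraries, the genes whose pattern lay closest to the mean standardised pattern of the 10 were *fbxc-28*, *zeel-1*, *Y116A8C.19*, *aly-1*, *F56F4.8*, *sdz-5*, *chd-7*, *C35E7.5*, *pes-2.1* and *hch-1*, with a Pearson's r of log2(TPM + 0.1) of 0.991 to 0.994 over 12 libraries, out of 19168 genes compared. These 12 points include the step between N2 and TU3401. Within the 6 N2 libraries alone, which include knockdown replicate 1, their r was 0.973 to 0.995, and within the 6 TU3401 libraries it was 0.482 to 0.925 for the 7 genes not listed at 0 throughout. *hch-1*, which encodes the hatching protease, had 75.4, 7.33 and 8.85 TPM in N2 *rpia-1* (RNAi) Day 0 and 6.34, 9.91 and 28.4 TPM in N2 EV, and was listed at 0 in all 6 TU3401 libraries. *zeel-1*, a zygotically expressed gene, had 5.46, 0.876 and 1.25 TPM in N2 *rpia-1* (RNAi) Day 0 and 1.43, 1.30 and 1.88 TPM in N2 EV. Both were highest in knockdown replicate 1 and next in EV replicate 3. This is the order of the mean pattern by which they were picked, so nothing is read from it. The r within each strain also reuses libraries of that choice. Of the 10 genes themselves, *elt-3* had an r of −0.79 and *end-3* of 0.71 to that mean, and the other 8 of 0.94 to 0.98.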

How the data were processed

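Per the file headers, the values the authors deposited are FPKM and TPM of 46904 genes in 12 libraries. The deposited TPM were treated as a linear signal because the libraries' sums differ slightly, and the deposited FPKM served as an alternative. The submitters' processing notes name HISAT2 2.2.1, featureCounts 1.6.2, Trimmomatic 0.36, MultiQC 1.12 and FastQC 0.11.9, and the genome build and the strand setting are not given in the sources used here. Libraries are paired-end from a stranded mRNA kit, and counts and depth in reads are unknown. WBcel235 with Ensembl release 115 gave the coordinates and exons, and 46817 of the gene IDs were found in it. No sequence is shown.

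Members and gene lists were chosen with earlier results of these data known. Named are all 10 members, *rpia-1*, up to 4 genes a list with the smallest p past the threshold, and the 10 genes most like the members (mean of at least 0.1 TPM), with later additions said so. Genes averaging 1 TPM or more in the 6 libraries compared were fitted on log2(TPM + 1) with limma 3.58.1 (R 4.3.3), trend included. An adjusted p (Benjamini-Hochberg over all genes tested, two-sided) under 0.05 passed. For single genes an exact permutation test of 3 against 3 libraries was used. The samples were collected independently, per the labels. Alternatives were FPKM, pseudocounts of 0.1 and 5, no filter or a minimum of 5 TPM, median ratio scaling, no trend, all 12 libraries in 1 fit, a replicate block and each library left out, when a group of 2 borrows the spread of the other group. The fits were tested on simulated data. Other steps used matplotlib 3.10.9, scipy 1.17.1, pandas 2.3.3, numpy 2.4.6 and Python 3.11.15.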

Additional observations from a re-analysis of the deposited data

How the results depend on the processing

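In N2 EV against TU3401 EV, 87 of 87 alternative values of the 6 tested genes kept direction and call. Of these genes *dsl-2*, *ceh-16* and *nhr-25* met the minimum of 1 TPM only through N2 EV. The same 3 fell under the minimum of 5 TPM and were not refitted there. Of all 13348 genes tested, 43.4% passed higher and 45.4% lower, so a kept call says little about these genes. The split of all genes in that comparison, 5798 higher and 6061 lower, became 5291 and 2983 with the minimum of 5 TPM, and the median of all genes was −0.22 with median ratio scaling, against −0.06. In TU3401, where none of the 3 tested genes passed, 37 of 45 alternative values kept direction. The sign turned with FPKM for *elt-1* (−0.10) and *lin-26* (−0.12), where the median of all genes was −0.15, and with median ratio scaling for *elt-3* (0.00089). When leaving out 1 library it ran from −0.080 to 0.16 for *elt-1* (turned without EV replicate 2), from −0.34 to 0.26 for *elt-3* (turned without *rpia-1* (RNAi) WL replicate 2 and, at 0.0038, without EV replicate 3) and from −0.054 to 0.15 for *lin-26* (turned without the same 2 libraries). The count of genes passing in TU3401, 0, was 6 with no filter and 0 to 1 when leaving out 1 library. Between the N2 groups the count of 1 was 2 with no filter and 1 to 33 when leaving out 1 library, with 33 without knockdown replicate 1 and 2 without EV replicate 3. The cause of these moves was not tested. Of the 10 genes, the count at least 2-fold higher in N2 knockdown replicate 1, 8, was 4 at a minimum ratio of 3 and 6 with a pseudocount of 1 TPM, both chosen after the data were seen. Replicate numbers did not pair the N2 samples, with correlations of same-numbered deviations of −0.44, 0.04 and −0.41. In TU3401 these were 0.05, 0.44 and 0.42, against −0.49 to 0.23 for samples of different number, so the numbers may pair samples there. A replicate block in TU3401 gave 355 genes at an unadjusted p under 0.05, against 164 without it. With a replicate block the counts of passing genes were 0 in TU3401, 1 in N2 and 11844 between the EV groups, against 11859 without it, and the block changed no call of the 10 genes. The 7 genes averaging under 1 TPM in TU3401 stayed out of the limma fit there, and with no filter 8 of the 10 entered and 0 passed.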
